A study of Equus caballus with 4 samples.

Results

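Prostaglandin synthesis enzymes were examined in the equine sarcoid, a fibroblast tumour that grows invasively in the skin of horses, against skin from a site distant to the tumour on the same animal. The genes were chosen by name: PTGS1 and PTGS2, which encode the cyclooxygenases, and PTGES, which encodes the membrane-bound, inducible prostaglandin E synthase. Every array probe whose transcript accession a horse RefSeq gene table pairs with one of the 3 symbols was read. PTGS2 had 3 probes and PTGES had 5, while 0 probes carried an accession paired with PTGS1, which was therefore not analysed here. The account below thus covers 2 of the 3 genes, out of 949 gene symbols with a probe on the array.

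Each of 4 horses gave 1 sarcoid and 1 sample of distant skin, compared on 1 two-colour array, with the sarcoid RNA in the Cy3 channel and the skin RNA in the Cy5 channel. Breed, age and any treatment of the horses are not given in the sources used here, and the descriptions of 3 samples mention cultured stem cells, against their tissue, horse and dye labels. No array had the dyes swapped (0 of 4), so a dye effect specific to a probe is part of every ratio. Per channel, 67.2% to 80.7% of the probe spots stood well above background, and 0 spots were saturated. All 9 measured fibroblast markers of 16 listed were higher in the sarcoids and all 4 measured keratinocyte markers of 19 listed lower. Over all targets 5.85% were higher and 9.9% lower. A target is a gene symbol or, where no symbol was matched, the array's own name for what a probe reads. Of 19603 targets tested, only 791 are symbols. Neighbouring probes without a symbol can count as separate targets, so shares over all targets are not shares of genes. The marker lists were chosen with earlier results of these data known, so these counts are a description only. In whole tissue, fewer cells of a type and less RNA per cell cannot be told apart.

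Prostaglandins are made in steps. A phospholipase A2 releases arachidonic acid from membranes, a cyclooxygenase turns it into prostaglandin H2, and a terminal synthase such as PTGES makes prostaglandin E2, which acts on receptors including PTGER2 and is inactivated by HPGD. PTGS1 is expressed in many resting cells, whereas PTGS2 and PTGES are induced by inflammatory signals, growth factors and wounding, in keratinocytes, fibroblasts and macrophages of the skin among other cells.

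Neither measured enzyme passed the test over 4 horses (0 of 2, against 15.7% of all targets), and each differed between individual sarcoids. PTGES was 6.08-fold higher in the sarcoid than in the skin of horse 4 and 2.16-fold higher in horse 2, but 1.47-fold lower in horse 3 and nearly level in horse 1. PTGS2 was 2.07-fold higher in the sarcoid of horse 1 and 1.18-fold to 1.43-fold lower in the other horses. The sarcoid with the highest PTGS2 was the one with the lowest PTGES. These values come from the brightest probe of each gene and the main normalization, and their size differed with other settings, as given below.

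For PTGES, the normalized log2 intensity in the sarcoids was 10.35 in horse 1, 13.05 in horse 2, 11.35 in horse 3 and 13.74 in horse 4. In the skin it was 10.42, 11.94, 11.90 and 11.14 in the same order. The sarcoids of horses 2 and 4 lay above every skin sample, that of horse 1 lay below every skin sample and that of horse 3 among them, so the tissues overlapped. The sarcoids spanned a 10.5-fold range and the skin samples a 2.86-fold range. The log2 ratio of sarcoid over skin was -0.07, 1.11, -0.55 and 2.61 in horses 1 to 4, a mean of 0.77 ± 1.41 (SD, n = 4) with a 95% interval from -0.57 to 2.12. The mean was smaller than the spread between horses and did not pass the test (limma adjusted p = 0.389). Without horse 4 the mean was 0.16, and without horse 3 it was 1.22 (limma adjusted p = 0.802 and 0.239). With median centring in place of loess, the ratios were -0.04, 0.58, -0.87 and 2.17 in horses 1 to 4.

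For PTGS2, the normalized log2 intensity in the sarcoids was 10.64 in horse 1, 9.04 in horse 2, 9.24 in horse 3 and 9.34 in horse 4. In the skin it was 9.58, 9.45, 9.75 and 9.59 in the same order. On the brightest probe, which gave these values, the skin samples lay within a 1.23-fold range. On it 1 sarcoid lay above all of them and 3 below all of them. The other probes separated the tissues less. On A_69_P000996 the sarcoid of horse 4 (8.79) lay among the skin samples (8.21 to 8.88). On A_69_P004631 that of horse 3 (6.30) lay among them (6.12 to 6.55). The log2 ratio of the brightest probe was 1.05, -0.41, -0.52 and -0.24 in horses 1 to 4. Its mean was -0.03 ± 0.73 (SD, n = 4) with a 95% interval from -0.76 to 0.70 (limma adjusted p = 0.959). Without horse 1 the mean was -0.39 (limma adjusted p = 0.21), and without horse 2, 3 or 4 it was slightly above 0. The size of the ratios in horses 2 to 4 depended on the processing. They were -0.76, -0.69 and -0.81 with median centring in place of loess. With the background model fitted to all spots they were -0.25, -0.10 and -0.24, and with the scanner software's processed signals -0.34, -0.31 and -0.07.

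**Figure D1:**
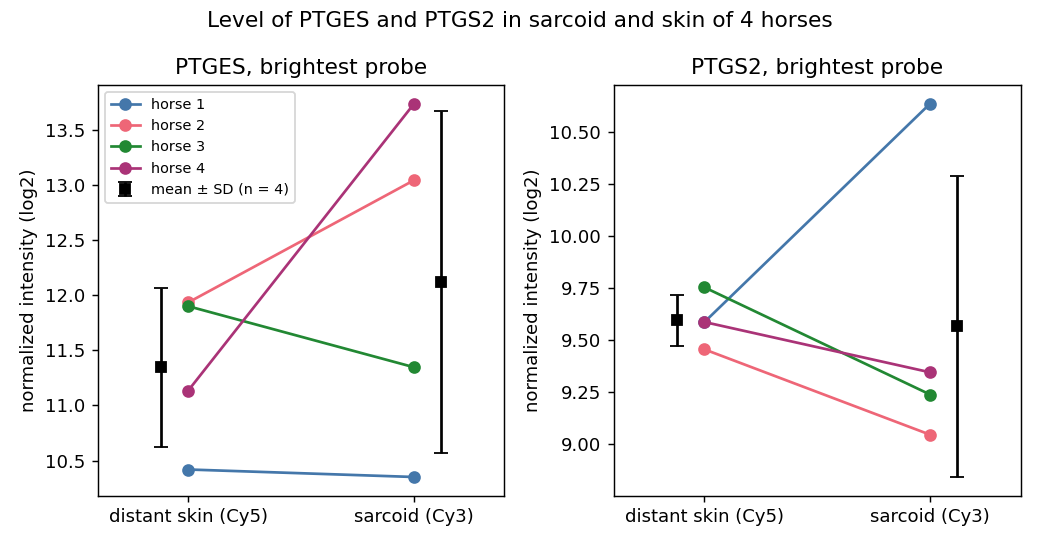
Normalized log2 intensity of the brightest probe of PTGES (left) and of PTGS2 (right) in distant skin and sarcoid. Each line joins the 2 tissues of 1 horse, and squares with bars give mean ± SD over 4 horses. PTGES reached 13.74 in the sarcoid of horse 4 and 10.35 in that of horse 1, while the 4 skin samples of PTGS2 lay between 9.45 and 9.75.

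Of the 19603 targets tested, of which 791 are gene symbols, 5.85% rose and 9.9% fell in the sarcoids by the limma test. The SD of the log2 ratio over horses was 0.34 for the median target. It was larger for PTGES than for 97.9% of the targets and larger for PTGS2 than for 87.8%. Within the sarcoids alone, the log2 level of PTGES had an SD of 1.55 over horses and that of PTGS2 0.72, against a median of 0.35 over targets. Within the skin, the SD was 0.72 for PTGES and 0.12 for PTGS2, against a median of 0.20. PTGES therefore varied more than most targets in both tissues. The brightest probe of PTGS2 did so in the sarcoids but not in the skin. Its sarcoid SD rests largely on horse 1, at 10.64 against 9.04 to 9.34 in the others. In the skin the other PTGS2 probes ran wider than the brightest one. A_69_P000996 stood at 8.33, 8.21 and 8.88 in horses 1, 2 and 4, and the dim A_69_P004631 ran from 6.12 to 6.55.

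The spread of PTGES between horses was far larger than that between its spots. The array carries 9 spots of PTGES, 5 of them of 1 probe (A_69_P000401) and 1 of each of 4 others, all targeting NM_001081935. On the array of horse 1 their log2 ratios ran from -0.17 to -0.04, on that of horse 2 from 1.04 to 1.13, on that of horse 3 from -0.65 to -0.52 and on that of horse 4 from 2.57 to 2.69. The 4 ranges did not overlap, and the SD over the 9 spots of an array was 0.029 to 0.041, against 1.41 between horses. Spots of 1 array share its RNA and labelling, so this spread measures the reading of the spots and nothing before it. Before normalization, the spots of horse 4 read 6165 to 10360 brightness units in the sarcoid channel and 2250 to 3742 in the skin channel. Those of horse 1 read 775 to 1220 and 780 to 1202. In horse 2 they read 3536 to 5684 and 3187 to 5130, and in horse 3 1412 to 2258 and 3007 to 4835. The ratios given above are those after normalization within each array. All 5 probes were well above background in both channels of the 4 arrays, with mean log2 ratios of 0.70 to 0.79.

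PTGS2 was read by 3 probes of NM_001081775, each on 1 spot, which differed more from one another. The brightest, A_69_P000997, was well above background in both channels of the 4 arrays. A_69_P000996 gave 1.48 in horse 1, -0.45 in horse 2 and -0.09 in horse 4. Its spot on the array of horse 3 was left out as an outlier, so its mean of 0.31 ± 1.03 rests on n = 3 horses. The dim probe A_69_P004631, detected above background on 2 arrays in sarcoid and 3 in skin, gave 0.87, -0.30, 0.18 and -0.46 in horses 1 to 4. On all 3 probes horse 1 was the highest and horses 2 and 4 were below 0, while the sign for horse 3 differed between the 2 probes that measured it. In the fit over 33859 probes, of which 18.2% passed, 0 of the 8 probes did, with limma adjusted p from 0.369 to 0.427 for PTGES and from 0.658 to 0.957 for PTGS2.

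**Figure D2:**
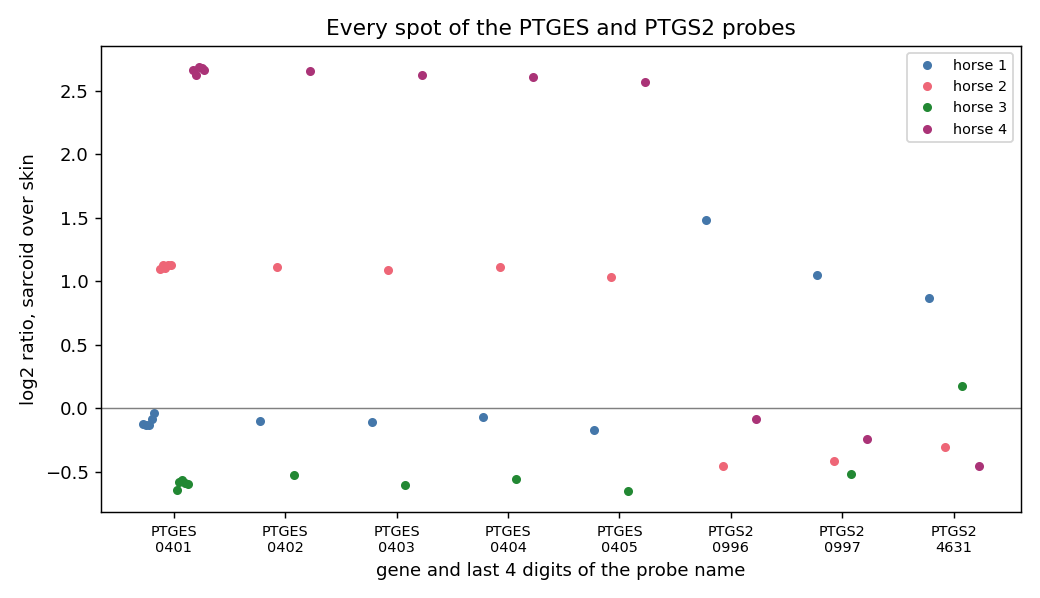
Log2 ratio of sarcoid over skin for each spot of the PTGES and PTGS2 probes, coloured by horse, with spots marked as outliers left out. The 9 spots of PTGES on an array lay together, from 2.57 to 2.69 in horse 4, while the 3 PTGS2 probes of horse 1 lay between 0.87 and 1.48.

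Whether the enzymes changed unequally was asked from the difference of their log2 ratios within a horse. PTGES minus PTGS2 was -1.12, 1.52, -0.04 and 2.85 in horses 1 to 4, a mean of 0.80 ± 1.74 (SD, n = 4). The difference was smaller than its spread (exact two-sided sign-flip permutation test, p = 0.5, the only pair compared; 4 horses cannot give a p below 0.125). Without horse 4 the mean difference was 0.12, without horse 1 it was 1.44.

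The other genes of the pathway were taken from lists of 93 genes on arachidonic acid release, prostanoid synthesis, breakdown and reception, leukotrienes and regulators of the enzymes. Of 24 that were measured, 3 rose, 4 fell and 17 did not pass the limma test. Of all targets 15.7% were called, 5.85% higher and 9.9% lower. Those of the steps before and after the enzymes included 2 of the genes that rose and 1 of those that fell.

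Upstream of the cyclooxygenases, 5 of 20 listed genes of arachidonic acid release were measured, of which 1 rose and 1 fell, with a median log2 ratio of 0.06 against 0.00 over all targets. PLA2G4A, the cytosolic phospholipase A2 that releases arachidonic acid, stood at 2.43, 0.81, 2.05 and 0.74 in horses 1 to 4. It rose 2.84-fold (limma adjusted p = 0.0401), by 1.51 ± 0.86 on the log2 scale (SD, n = 4), and its 2 probes gave 1.51 and 1.57. The call was narrow: with any 1 horse left out the limma adjusted p was 0.0567 to 0.123, on median centring it was 0.104, without the filter on dim probes 0.0644, and with the background model fitted to all spots 0.219. PLA2G4B, another phospholipase of that group, fell by 0.63 ± 0.17 on the log2 scale (n = 4; limma adjusted p = 0.0262), and with any 1 horse left out its limma adjusted p was 0.0663 to 0.0892, while with the background model fitted to all spots it stood at -0.40 (limma adjusted p = 0.301). The remaining members did not pass: ANXA1, annexin A1, was at 0.74 ± 0.47, ANXA2 at -0.50 ± 0.33 and the secreted phospholipase PLA2G2A at 0.06 ± 0.11.

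PLA2G4A is the immediate neighbour of PTGS2 in the gene table of the TB-T2T horse assembly, with 0 genes listed between them. The log2 ratio of PLA2G4A exceeded that of PTGS2 by 1.38, 1.22, 2.57 and 0.98 in horses 1 to 4. The mean difference of 1.54 ± 0.71 (SD, n = 4) was larger than its spread and above 0 in 4 of 4 horses (exact two-sided sign-flip permutation test, p = 0.125, the smallest that 4 horses can give). This pair was chosen after its values were seen.

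Of 11 terminal synthases listed apart from PTGES, 2 were measured and 0 passed, with a median of -0.42. PTGES3, the cytosolic prostaglandin E synthase also known as the chaperone p23, was at -0.77, -0.36, 0.30 and -0.30 in horses 1 to 4, a mean of -0.28 ± 0.44. PTGDS, a prostaglandin D synthase, was below 0 in every horse, at -0.55 ± 0.26 (limma adjusted p = 0.0563). Its probes disagreed in size: the dimmer one was at -1.69 and passed in the fit over probes (limma adjusted p = 0.0187).

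Downstream, PTGER2, the EP2 receptor for prostaglandin E2, was higher in the sarcoid of every horse. Its log2 level was 9.15, 8.88, 9.67 and 9.24 in the sarcoids and 7.55, 7.70, 7.92 and 7.97 in the skin of horses 1 to 4, and the tissues did not overlap. It rose 2.73-fold, with log2 ratios of 1.60, 1.18, 1.75 and 1.26 and a mean of 1.45 ± 0.27 (SD, n = 4; limma adjusted p = 0.00359). All 6 of its probes passed in the fit over probes, with means from 0.69 to 1.46. With any 1 horse left out the limma adjusted p was 0.0148 to 0.0242, and with the background model fitted to all spots the ratio was 0.89 and the call was lost (limma adjusted p = 0.211). PTGFR, the receptor for prostaglandin F2 alpha, was the other of 2 measured among 10 listed receptors and did not pass, at 0.52 ± 0.55 (limma adjusted p = 0.198).

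HPGD, the dehydrogenase that inactivates prostaglandins, was the only measured gene of 7 listed for breakdown and transport. Its log2 ratio was 2.29, -1.69, 1.60 and -0.90 in horses 1 to 4. Their mean was 0.33 ± 1.92 (n = 4, limma adjusted p = 0.803). HPGD was well above background on 3 sarcoid arrays and 4 skin arrays. Its sarcoid level was lowest in horse 2, at 6.38, so the size of the ratio there may be limited by the background. The horses in which HPGD was higher in the sarcoid, 1 and 3, were those in which PTGES was not, and the horses with higher PTGES, 2 and 4, were those in which HPGD was lower. PLA2G4A also had its larger ratios in horses 1 and 3. With 4 horses no relation between these genes was tested. ALOX5AP, which presents arachidonic acid to 5-lipoxygenase, was the only measured gene of 14 on the leukotriene branch and did not pass, at 0.24 ± 0.57, with 1.09 in horse 1.

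**Figure D3:**
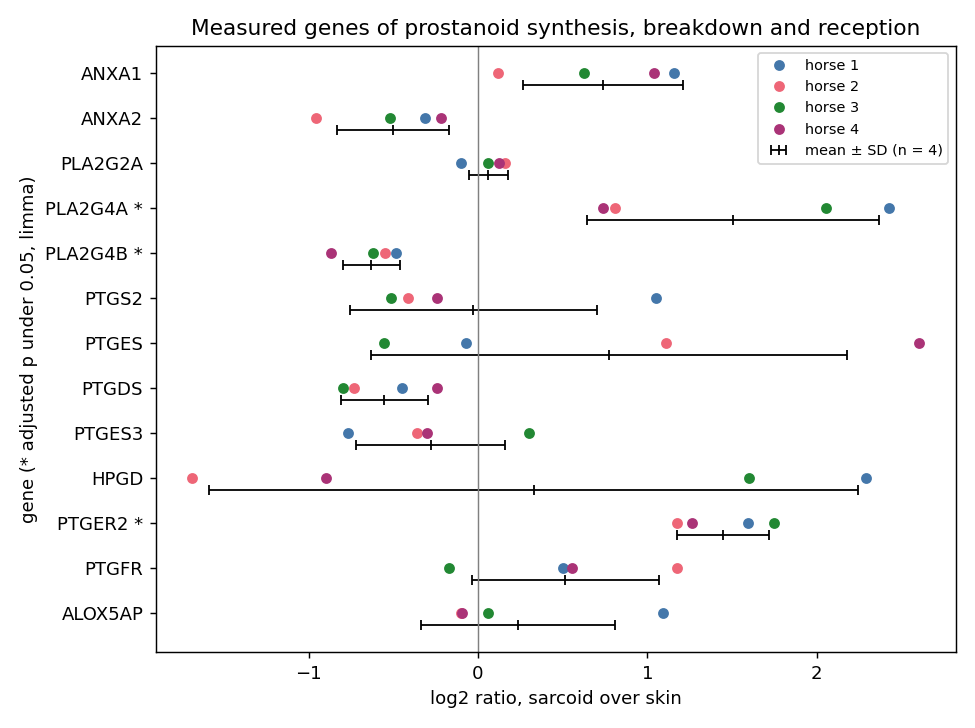
Log2 ratio of sarcoid over skin for each measured gene of arachidonic acid release, prostanoid synthesis, breakdown and reception and leukotriene synthesis; points are horses, bars give mean ± SD over 4 horses, and asterisks mark genes that passed the limma test. The ratios of PTGER2 lay between 1.18 and 1.75, whereas those of PTGES and HPGD spread on both sides of 0.

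Of 31 listed regulators of PTGS2 and PTGES 13 were measured, of which 1 rose, 3 fell and 9 did not pass, with a median log2 ratio of -0.21. The genes that fell were IL1R2, the interleukin 1 decoy receptor (-5.39 ± 0.54), the immediate early gene FOS (-3.10 ± 1.77) and the interleukin 1 receptor antagonist IL1RN (-2.20 ± 0.44). Of the 8 probes of IL1RN 2 passed, with means from -2.20 to -0.14 and a mean over probes of -0.55 (limma adjusted p = 0.0304). Only the brightest probe was well above background on 4 sarcoid arrays. Each of the others was so on 0 or 1 sarcoid arrays, so the size of their ratios is limited by the background. With the background model fitted to all spots IL1RN was at -1.28 and did not pass (limma adjusted p = 0.188). IL10, an anti-inflammatory cytokine, rose by 0.51 ± 0.06 on the log2 scale, and 4 of its 5 probes passed. Its call was lost with any 1 horse left out (limma adjusted p = 0.0795 to 0.132), and its ratio was 0.27 with the background model fitted to all spots and 1.16 with the scanner software's processed signals. FOS lost its call in 7 of 14 alternative analyses. TNF and IL6, cytokines known to induce PTGS2, did not pass, at -0.28 ± 0.71 and 0.28 ± 0.17. IL1A, interleukin 1 alpha, was below 0 in 4 of 4 horses, at -0.96 ± 0.68, and did not pass (limma adjusted p = 0.076). It was well above background on 0 sarcoid arrays and 4 skin arrays, so the size of its ratio is limited by the background. The receptors TLR4 and TLR2 did not pass either. The log2 ratios of TLR4 were -0.64, 0.59, -1.96 and 1.11 in horses 1 to 4, and those of TLR2 were -0.44, -0.02, -0.80 and 0.42. Both ran in the same order of horses as those of PTGES. They were picked from 13 measured regulators after their values were seen, so this is a description only.

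Over the 8 levels of 4 sarcoids and 4 skin samples, the genes whose pattern was most like that of PTGES among 789 others with a symbol were NOS2 (Pearson r = 0.946), LENEP (r = 0.929) and DDIT4 (r = 0.925). The 8 values come from 4 horses and 4 arrays, and the highest of 789 coefficients are given, so they are a description only. NOS2, the inducible nitric oxide synthase, had log2 ratios of -0.01, 1.20, -0.96 and 1.72 in horses 1 to 4, with a mean of 0.49 ± 1.21 (SD, n = 4; limma adjusted p = 0.53) that was 0.0768 without horse 4, 0.25 without horse 2 and 0.97 without horse 3. DDIT4, a stress-induced inhibitor of mTOR signalling, stood at 0.75, 1.25, -0.30 and 1.42, whereas the ratios of LENEP stayed between -0.12 and 0.14. The genes most like PTGS2 were YIF1A (r = 0.906), PMAIP1 (r = 0.901) and FASLG (r = 0.873). PMAIP1, a pro-apoptotic BCL2 family member, was at 1.37 in horse 1 and between -0.09 and 0.19 in the others, and FASLG was well above background on 2 sarcoid and 3 skin arrays. None of these genes passed the limma test on 4 horses.

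**Figure D4:**
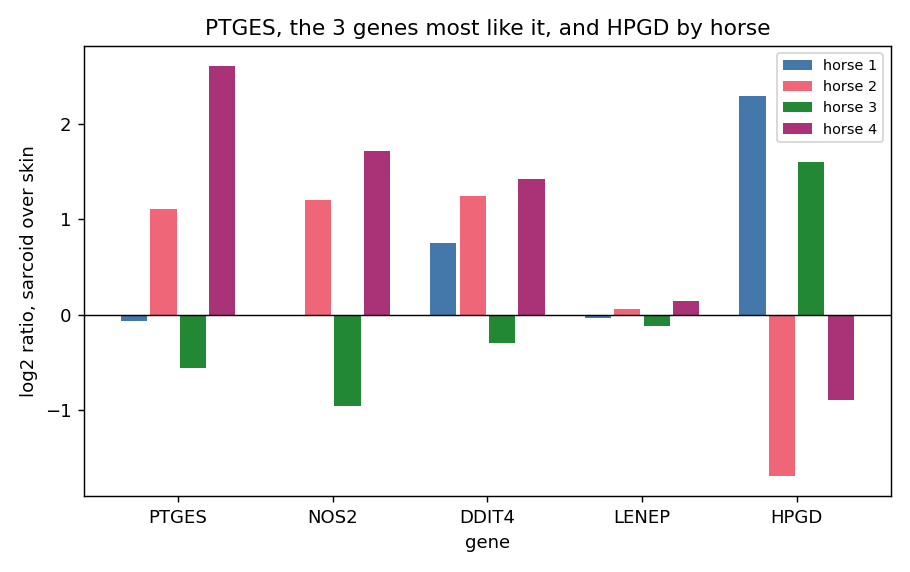
Log2 ratio of sarcoid over skin in each of 4 horses for PTGES, for the 3 genes whose levels were most like those of PTGES, and for HPGD; each bar is 1 array. PTGES and NOS2 were highest in horse 4 (2.61 and 1.72) and lowest in horse 3, and HPGD was highest in horse 1 (2.29) and lowest in horse 2.

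Markers of other cells differed between the same horses. Of those measured, 1 of 5 endothelial and 1 of 5 macrophage and dendritic cell markers rose, 5 of 6 markers of glands and hair follicle fell, and 0 of 3 mast cell and 0 of 3 T and NK cell markers passed the limma test. Over all targets 5.85% rose and 9.9% fell, and these lists too were chosen with earlier results known. The median log2 ratio of 5 measured endothelial markers of 12 listed was 0.03, 1.59, -1.03 and 0.77 in horses 1 to 4, so it was highest in horses 2 and 4, as for PTGES. Of the 5 markers, PECAM1 (0.42, 2.29, -1.84 and 0.77), VWF (0.03, 1.59, -1.95 and 0.10) and SELP (-0.85, 0.80, -1.03 and 1.02) had their highest ratios in horses 2 and 4, and none of these passed the limma test. VCAM1, the marker that rose, stood at 3.24, 3.33, 1.84 and 2.04, highest in horses 1 and 2, and SELE did not pass, at -0.61, 0.10, -0.21 and -0.22. The summed linear level of the endothelial list ran from 5956 to 31407 in the sarcoids and from 3320 to 8146 in the skin. For 5 of 14 macrophage and dendritic cell markers the medians were 0.63, 0.40, -0.34 and 0.54, with summed levels of 8136 to 23130 in the sarcoids and 4616 to 9997 in the skin. For 4 of 19 keratinocyte markers they were -5.15, -4.57, -5.11 and -5.36, with summed levels of 1396 to 3340 in the sarcoids and 39953 to 138814 in the skin. For 3 of 9 mast cell markers they were -1.79, 0.41, -0.28 and -0.47, with summed levels of 303.4 to 3650 in the sarcoids and 1346 to 3974 in the skin. Of 10 neutrophil markers only CXCL8 was measured, at -1.25, 0.24, -0.13 and -0.52. The part of these cells in the values of PTGES, PTGS2 and HPGD was not tested.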

How the data were processed

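The deposited scanner files give, per the file headers, a linear median intensity for every spot and for its local background in both channels. The submitters' processing notes name Agilent Feature Extraction 11.5.1.1. The labels' protocols give 100 ng of total RNA, amplified and labelled with a low-input two-colour kit, from tissue kept at -80 °C. The authors' value table holds the log10 ratio of Cy5 over Cy3 deposited in the scanner files (largest difference 0), per the file headers, with medians of 0, -0.00262, -0.0118 and 0 for horses 1 to 4.

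Outlier spots were left out first, then normexp (offset 50) and, within each array, loess were applied, the latter with a weight of 0 for controls (limma 3.58.1, R 4.3.3). This order follows earlier work on these data and was kept with the number of calls known: it gave 3087 calls, against 240 with normexp fitted to all spots. Levels were made comparable between arrays by Aquantile. Spots of a probe were averaged. A probe was kept if either channel exceeded background on 3 or more of the 4 arrays, and a gene is shown by its brightest probe. The log2 ratio of sarcoid over skin was compared with 0 by lmFit and eBayes (two-sided; Benjamini-Hochberg over 19603 targets, threshold 0.05; a second fit ran over probes). Between arrays, ratios correlated at 0.621 to 0.743 over targets.

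The members and lists were chosen with earlier results of these data known. Accessions were matched to symbols for 2332 of 43603 probes; the table's coordinates belong to another build than the array's and are not printed. The rule for named genes took the members, up to 4 called genes of a pathway list (or, with none called, the 2 of largest ratio) and the 3 genes most like each member. ANXA1, ANXA2, PLA2G2A, PTGFR, TNF, IL6, IL1A, TLR4, TLR2, PECAM1, VWF, SELP, SELE and CXCL8 were added after their values were seen. The rule also took up to 2 called genes of each marker list, of which only VCAM1 is named and the others are given as counts. All 4 arrays were fitted with no other block, since the horse is inside the ratio; nothing beyond the horse labels says how samples were taken.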

Additional observations from a re-analysis of the deposited data

Results flagged for a closer look

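Of 25 sets of 4 horse values examined, 1 held a horse far from the others, and chance alone gives about 1 in 20. The log2 ratio of FASLG was 0.27 in horse 1 and between -0.14 and -0.07 in the others, a gap of 0.83 of the range. The PTGES and PTGS2 ratios and levels held no such horse by the same criterion, which FASLG passed only narrowly. The PTGS2 ratio of horse 1 fell just short of it, at 1.05 against values between -0.52 and -0.24 in the other horses. Without horse 1 the mean log2 ratio of PTGS2 was -0.39, against -0.03 over 4 horses.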

How the results depend on the processing

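PTGES kept a mean log2 ratio above 0 and did not pass in any of 14 alternative analyses (0.16 to 1.22, limma adjusted p = 0.239 to 0.802). PTGS2 did not pass in any either, and its mean turned above 0 in 8: it was 0.11 with the background model fitted to all spots or with outlier spots kept, 0.10 with the scanner software's processed signals or the authors' value table, 0.0785 as the mean of its probes, and -0.39 to 0.13 with 1 horse left out. Targets called numbered 3087, against 240 with the background model fitted to all spots and 241 with outlier spots kept; with 1 horse left out they were 1467 to 2235 (1467 without horse 1, 1766 without horse 2, 1926 without horse 3, 2235 without horse 4). The share of calls on the higher side was 37.1%, against 48.2% with processed signals and 18.6% on median centring. In models of the separate channels PTGES had a limma adjusted p of 0.571 with no replicate block and 0.417 with the spot correlation as a replicate block. The difference between PTGES and PTGS2 was 0.12 to 1.44 with 1 horse left out, and 0.68 to 0.80 in the other alternatives run.

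The alternatives for the other genes were run after the data were seen. PTGER2 lost its call in 2 of 14, PLA2G4A in 9, PLA2G4B in 9, IL10 in 6 and IL1RN in 2, while IL1R2 kept it in all 14. HPGD turned to -0.0326 with processed signals or the value table, and was -0.33 to 1.00 with 1 horse left out. FASLG turned to 0.0368 with the model fitted to all spots, to 0.0369 with outlier spots kept and to 0.17 on median centring, and lay between -0.11 and 0.0294 with 1 horse left out. On median centring YIF1A was -0.13 and LENEP -0.0878; with 1 horse left out they ran from -0.22 to 0.33 and from -0.0313 to 0.0566. DDIT4 passed without horse 3 (1.14, limma adjusted p = 0.036). Precision is limited by having 4 arrays, and dim probes such as A_69_P004631 lie near background.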
